A study of Canis lupus familiaris with 12 samples.

Results

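The genes described here are the integrin subunits with which fibroblasts, smooth muscle cells, valve interstitial cells and endothelial cells hold on to the matrix around them. They were chosen by name: 10 subunits (ITGA1, ITGA2, ITGA3, ITGA5, ITGA8, ITGA11, ITGAV, ITGB1, ITGB3 and ITGB5) were looked for in the gene tables of the mitral valve and the left ventricle of dogs, by symbol or by the UniProt entry name for dog. Earlier results of these data were known when this set and the other gene lists below were chosen. Rows were found for 9 of the 10 among the 24223 genes of each table. ITGB3 had no row under either name and was not analysed here. All 9 were tested by the authors in the valve, and 8 of them in the ventricle, where ITGA2 was marked as not tested.

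RNA was sequenced from dogs with degenerative mitral valve disease (DMVD), in which the valve leaflets thicken and leak, and from control dogs labelled normal, in 12 libraries from 8 dogs. The DMVD valve group held 3 libraries, from a Pomeranian of 9 years and Beagles of 16 and 17 years, and the control valve group held 3, from a Beagle of 8 years and a pair of Hound mixes of 3 years. The DMVD ventricle group held 2 libraries, from the same Pomeranian and a Jack Russell Terrier aged 5 years, and the control ventricle group held 4, from the same Beagle of 8 years and from Hound mixes of 3 years. Diagnosis therefore cannot be told apart from age and breed, and 4 dogs gave both tissues. The deposited values are FPKM, fragments scaled to gene length and library size, with 1 value per diagnosis and tissue. Values per dog were not used here, so neither the spread between dogs nor the depth per library is known.

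Integrins are receptors made of 1 alpha and 1 beta chain that join the extracellular matrix to the actin cytoskeleton. The alpha chain largely sets the ligand: ITGA5, ITGA8 and ITGAV recognise the RGD peptide of fibronectin, vitronectin and related proteins, ITGA1, ITGA2 and ITGA11 bind collagens, and ITGA3 binds laminins. ITGB1 is the shared partner of most of these alpha chains, whereas ITGB3 and ITGB5 pair with ITGAV. In valve and ventricle they let cells sense matrix stiffness and stretch, and integrins that contain ITGAV can release TGF-beta from its latent complex.

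The valve samples also held heart muscle RNA. The 8 of 10 cardiomyocyte markers with a row summed to 11692 FPKM in DMVD valves and 23750.3 FPKM in control valves. All 8 were tested, with a median log2 fold change (DMVD over control) of -1.19, and 1, ACTC1, had a higher value in DMVD. The 1 marker that passed the adjusted p of 0.05 was MYL3, at 36.6 FPKM in DMVD and 1335 FPKM in control valves. Over all genes tested in the valve 0.108% passed as lower in DMVD. The 6 of 10 fibroblast and valve interstitial markers with a row summed to 1977 FPKM in DMVD valves and 1756 FPKM in control valves, and none of the 5 tested passed. In the ventricle the 7 cardiomyocyte markers other than MYH7 summed to 36733 FPKM in DMVD and 40690.1 FPKM in control samples; the untested MYH7 row was listed at 1637 FPKM in DMVD and 0 in control samples and was left out of these sums.

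The integrins spanned a wide range of expression in both tissues. ITGB1, the common beta chain, was the highest of the 9 in each of the 4 groups. It was listed at 139 FPKM in DMVD valves and 105 FPKM in control valves, and at 132 FPKM in DMVD ventricles and 78.8 FPKM in control ventricles, above 93.7% to 96.0% of the tested genes of its group. In DMVD valves ITGAV, ITGB5 and ITGA5 followed ITGB1, then ITGA8, ITGA1, ITGA3, ITGA11 and ITGA2. In control valves the order was the same down to ITGA5, but ITGA8 stood below ITGA1, and ITGA11 above ITGA3. ITGA2, a collagen receptor of platelets and epithelia, was the lowest of the 9 in every group. As no values per dog were used, the distance between neighbours in these orders could not be set against a spread.

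**Figure D1:**
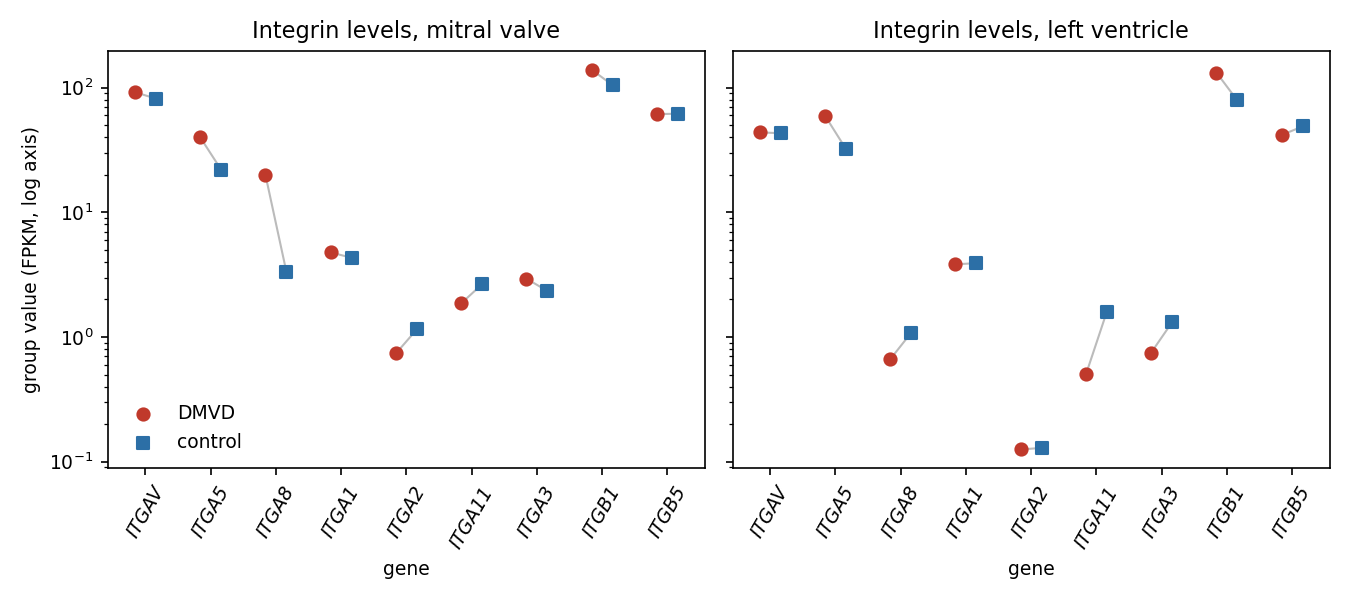
Group values of the 9 integrin genes in FPKM on a log axis, in the mitral valve (left) and the left ventricle (right), with DMVD as red circles and control as blue squares and 1 value per group. In the valve ITGA8 shows the widest gap between the groups, 19.9 FPKM in DMVD and 3.35 FPKM in control, and in the ventricle ITGA11 does, 0.502 FPKM in DMVD and 1.60 FPKM in control.

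ITGA8 was the one integrin of the 9 that changed in the diseased valve. ITGA8 pairs with ITGB1, binds the RGD ligands nephronectin and fibronectin, and in mouse and human is known from smooth muscle and other contractile mesenchymal cells. It was listed at 19.9 FPKM in DMVD valves and 3.35 FPKM in control valves (gene ENSCAFG00000004656, chromosome 2, 21076232 to 21244350, CanFam3.1). This is a 5.94-fold higher value, or 2.57 ± 0.62 on the log2 scale (SE implied by the authors' test, 3 DMVD and 3 control libraries), with a 95% interval of 1.36 to 3.78. The p in the authors' deposited table was 3.15e-05, the 34th smallest of 14810 tested genes, and the Benjamini-Hochberg adjusted p over all of these was 0.0137. In bulk tissue, more cells of a type and more RNA per cell cannot be told apart.

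Of the 14810 genes tested in the valve, 0.419% passed the adjusted p of 0.05 in either direction, 0.311% higher and 0.108% lower in DMVD. ITGA8 was 1 of 9 integrins, and the other 8 did not pass. The call ended with the more conservative Benjamini-Yekutieli adjustment of the authors' p, to an adjusted p of 0.140, and the adjusted p of ITGA8 ran from 0.0105 to 0.140 over the adjustments, filters and scaling tried. In control valves ITGA8 had a higher value than 35.1% of the tested genes, and in DMVD valves than 78.2%.

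Other cell types' RNA differed between the same valve groups. The 6 leukocyte markers with a row, of 10, summed to 126 FPKM in DMVD valves and 41.4 FPKM in control valves. All 6 were tested and had a higher value in DMVD, with a median log2 fold change of 1.70. Of them 1 passed the adjusted p of 0.05. The 7 of 10 endothelial markers summed to 129 FPKM in DMVD valves and 63.2 FPKM in control valves. All 7 had a higher value in DMVD, with a median log2 fold change of 1.02, and 1 passed. Over all tested genes 54.9% had a higher value in DMVD valves, and 0.311% passed as higher. All 10 smooth muscle and pericyte markers had a row and summed to 2941 FPKM in DMVD valves and 2208 FPKM in control valves, none of the 9 tested passing. Without DES, which heart muscle also expresses, the sums were 1753 FPKM in DMVD valves and 831 FPKM in control valves. Most of these sums was TAGLN, at 1572 FPKM in DMVD valves and 699 FPKM in control valves. Of the 9 tested, 6 had a higher value in DMVD valves, with a median log2 fold change of 0.35 and a range from -0.47 (RGS5) to 1.24 (ACTA2). The 4 of 6 red cell markers summed to 608 FPKM in DMVD valves and 35.8 FPKM in control valves, and 1 of 4 rose. The 8 of 10 platelet markers summed to 41.6 FPKM in DMVD and 38.1 FPKM in control valves, 1 of 6 tested rising. Of these platelet sums TUBB1 held 21.9 FPKM in DMVD and 33.5 FPKM in control valves. The other 5 of the 6 tested had a higher value in DMVD valves, and the median log2 fold change of the 6 was 1.10. The risen platelet marker was SELP (3.67 ± 0.62). In the control valves 1 red cell marker, HBM, was listed at 0, and no marker of the other lists was at 0 in either valve group. The part of these differences in the ITGA8 result was not tested.

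The remaining RGD-binding alpha chains of the set were abundant in the valve and did not pass. ITGA5, the classical fibronectin receptor (ENSCAFG00000006491, chromosome 27, 904661 to 926708), was listed at 39.9 FPKM in DMVD valves and 22.0 FPKM in control valves, a log2 fold change of 0.86 ± 0.55. In the ventricle it was listed at 59.6 FPKM in DMVD and 32.3 FPKM in control samples, or 0.88 ± 0.47. The DMVD values were thus above the control values by nearly the same ratio in both tissues, 1.81 in the valve and 1.84 in the ventricle, and neither passed (Benjamini-Hochberg adjusted p of 0.9999 in the valve and 0.486 in the ventricle).

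ITGAV, which binds vitronectin and latent TGF-beta (ENSCAFG00000014597, chromosome 36, 28815197 to 28890642), was the most abundant alpha chain of the valve. It was listed at 91.8 FPKM in DMVD valves and 81.6 FPKM in control valves, with a log2 fold change of 0.17 ± 0.64. In the ventricle it was listed at 43.8 FPKM in DMVD and 43.0 FPKM in control samples, or 0.024 ± 0.48. The 95% interval reached from -1.09 to 1.43 in the valve and from -0.92 to 0.97 in the ventricle, so a doubling lies within the interval of the valve and just outside that of the ventricle. ITGA8 itself was low in the ventricle, at 0.663 FPKM in DMVD and 1.08 FPKM in control samples (-0.71 ± 0.68, Benjamini-Hochberg adjusted p of 0.879), the opposite sign to the valve.

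The collagen-binding alpha chains were low in both tissues. ITGA1, the collagen IV receptor of smooth muscle and capillary endothelium (ENSCAFG00000018439, chromosome 4, 62294082 to 62455650), was listed at 4.76 FPKM in DMVD valves and 4.32 FPKM in control valves. In the ventricle it was listed at 3.82 FPKM in DMVD and 3.91 FPKM in control samples. Its log2 fold changes were 0.14 ± 0.50 in the valve and -0.034 ± 0.52 in the ventricle, both smaller than their SEs, and neither passed.

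ITGA11, the receptor of fibroblasts for fibrillar collagen (ENSCAFG00000017482, chromosome 30, 32322198 to 32405661), had the lowest p of the integrins in the ventricle. It was listed at 0.502 FPKM in DMVD ventricles and 1.60 FPKM in control ventricles, a value 0.315 times that of control and a log2 fold change of -1.67 ± 0.55 (2 DMVD and 4 control libraries). The p in the authors' deposited table was 0.00249, and the Benjamini-Hochberg adjusted p of 0.0702 missed the threshold. Both values are under 2 FPKM, and adding 1 FPKM to each group's value gave a log2 fold change of -0.79. In the valve ITGA11 was listed at 1.86 FPKM in DMVD and 2.66 FPKM in control samples (-0.51 ± 0.63), which also did not pass.

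ITGA2 (ENSCAFG00000018423, chromosome 4, 62156023 to 62268983) was listed at 0.739 FPKM in DMVD valves and 1.15 FPKM in control valves, with a log2 fold change of -0.64 ± 1.48. In the ventricle its untested values were 0.125 FPKM in DMVD and 0.129 FPKM in control samples. ITGA3, the laminin-binding chain of the set (ENSCAFG00000016987, chromosome 9, 25882360 to 26122588), was listed at 2.94 FPKM in DMVD valves and 2.34 FPKM in control valves, and at 0.750 FPKM in DMVD ventricles and 1.31 FPKM in control ventricles. Its SE was wide, with log2 fold changes of 0.33 ± 1.17 in the valve and -0.81 ± 2.09 in the ventricle. The listed position of ITGA3 spans 7 genes of the table and those of ITGA2 and ITGA5 span 2 each, so the true ends of these 3 genes lie within the given coordinates. No source used here says whether strand entered the counting, so reads of overlapping genes may have been shared there.

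Neither beta chain passed in either tissue. ITGB1 (ENSCAFG00000003821, chromosome 2, 3728545 to 3759496), with the values given above, had a log2 fold change of 0.41 ± 0.68 in the valve and 0.74 ± 0.50 in the ventricle (Benjamini-Hochberg adjusted p of 0.9999 in the valve and 0.673 in the ventricle). ITGB5, the vitronectin-binding partner of ITGAV (ENSCAFG00000012477, chromosome 33, 27796831 to 27912641), was listed at 61.3 FPKM in DMVD valves and 61.7 FPKM in control valves. In the ventricle it was listed at 41.7 FPKM in DMVD and 48.8 FPKM in control samples. Its log2 fold changes were -0.0097 ± 0.75 in the valve and -0.23 ± 0.48 in the ventricle.

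**Figure D2:**
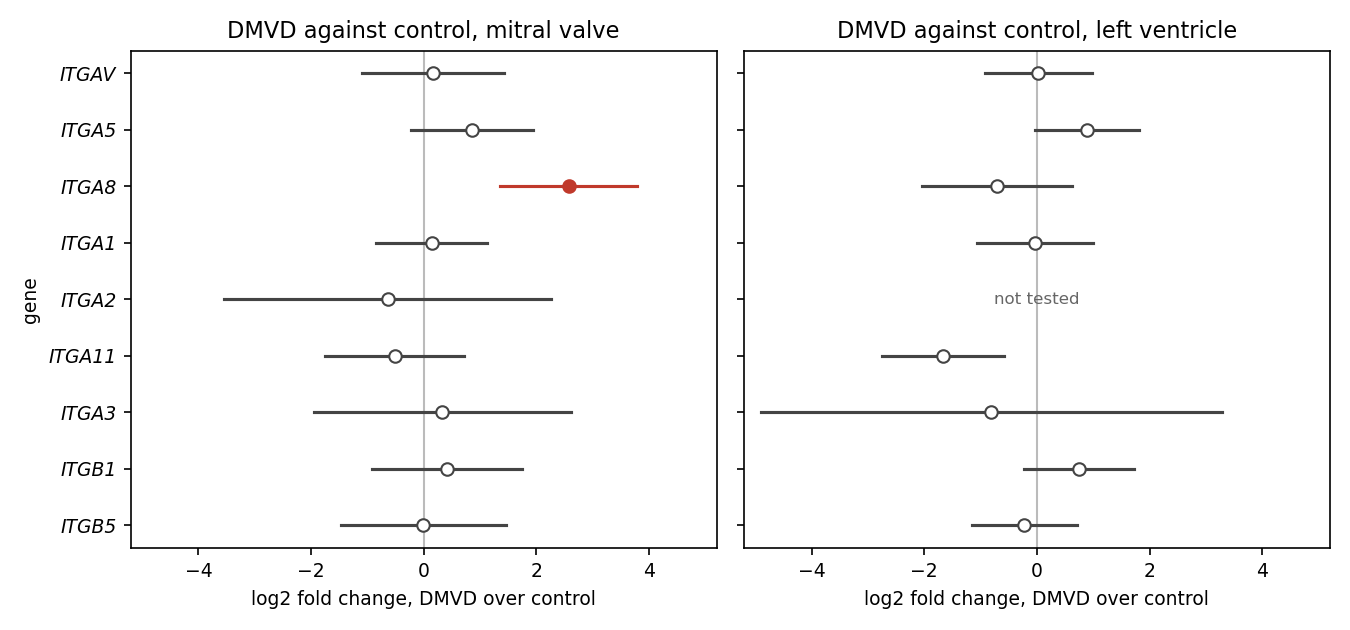
Log2 fold change of each integrin, DMVD over control, in the mitral valve (left) and the left ventricle (right), with bars for the 95% interval from the authors' implied SE. The filled red point marks the one gene past the adjusted p of 0.05, ITGA8 in the valve at 2.57, and ITGA2 was not tested in the ventricle.

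Across the set, 6 of 9 integrins had a higher and 3 a lower value in DMVD valves, with a median log2 fold change of 0.17, beside 54.9% of all tested genes with a higher value and a median of 0.047 over all tested genes. In the ventricle 3 of 8 tested integrins had a higher and 5 a lower value in DMVD, with a median of -0.13, beside 46.8% of all tested genes and a median of -0.041. No integrin passed the adjusted p of 0.05 there, against 3.08% of all 13788 genes tested in the ventricle (1.92% higher and 1.16% lower in DMVD), and 1 of 8, ITGA11, had an unadjusted p under 0.05, against 11.3% of all genes. In the valve 1 of 9 had an unadjusted p under 0.05, against 4.2% of all genes.

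The size of change that could have passed differed between genes. Given its SE, a valve integrin needed a change of at least 3.65-fold (ITGA1) to 45.3-fold (ITGA2), and ITGA8 needed 4.92-fold. In the ventricle the needed change ran from 2.81-fold (ITGA5) to 97.9-fold (ITGA3). A 2-fold difference would therefore not have passed for any of the tested integrins.

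**Figure D3:**
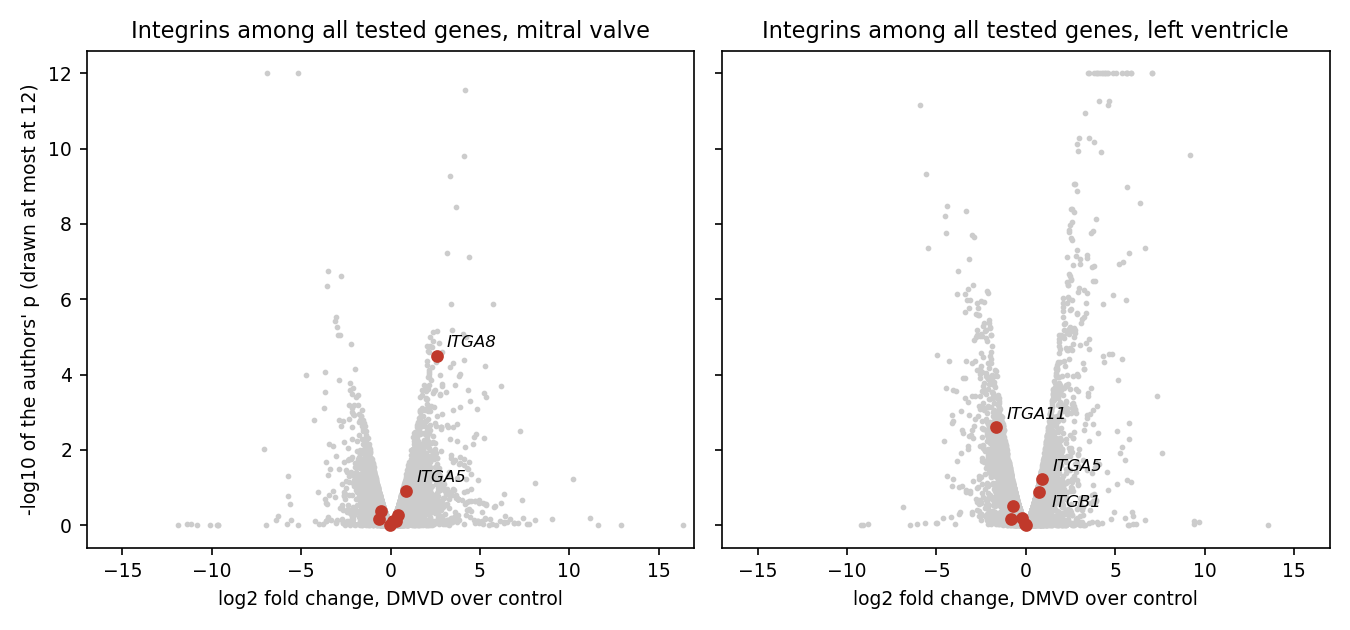
Each tested gene above 0 in both groups by its log2 fold change (DMVD over control) and the -log10 of the authors' p, in the mitral valve (left) and the left ventricle (right), with all genes in grey and the integrins in red. ITGA8 lies in the upper right of the valve panel (2.57, the authors' p = 3.15e-05), and ITGA11 on the left of the ventricle panel (-1.67, p = 0.00249), below the level of the called genes.

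The effect of DMVD on each integrin was compared between the tissues, valve minus ventricle. ITGA8 had the largest difference of the 8 integrins tested in both, 3.28 ± 0.92 on the log2 scale, from 2.57 in the valve and -0.71 in the ventricle. Its 95% interval ran from 1.48 to 5.08. The two-sided normal p was 0.000362, the 27th smallest of 13099 genes, and the Benjamini-Hochberg adjusted p of 0.176 did not pass. None of the 8 integrins passed this test, which 0.107% of all genes did, and 1 of 8 had an unadjusted p under 0.05, against 2.66% of all genes. ITGA5 had the smallest difference, -0.024 ± 0.73, with an interval from -1.45 to 1.40. The 4 dogs shared by the tissues were treated as if independent, since group values give no covariance.

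The tissues were normalised separately, so their levels stand side by side with no test. ITGA8 was listed in DMVD at 19.9 FPKM in the valve and 0.663 FPKM in the ventricle, a ratio of 30.1, and in controls at 3.35 FPKM in the valve and 1.08 FPKM in the ventricle. ITGAV was about doubled in the valve relative to the ventricle, with a ratio of 2.10 in DMVD and 1.90 in controls. ITGA5 was the one integrin of the 9 with a lower value in the valve than in the ventricle in both diagnoses, at ratios of 0.670 in DMVD and 0.681 in controls. The median log2 ratio of all genes above 1 FPKM in both tissues was 0.34 in DMVD and 0.31 in controls.

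Among the 7 alpha chains of the set, the RGD-binding receptors made up most of the transcripts. ITGAV, ITGA5 and ITGA8 together held 93.6% of the summed FPKM of the 7 in DMVD valves and 91.1% in control valves, and 95.2% in DMVD ventricles and 91.7% in control ventricles. With the 10 other alpha chains that had a row added to the sum, ITGAV, ITGA5 and ITGA8 held 72.0% in DMVD valves and 61.0% in control valves. In the ventricle they held 67.9% in DMVD and 49.4% in control samples. Within the 7, ITGA8 held 12.3% in DMVD valves and 2.85% in control valves, but 0.607% in DMVD ventricles and 1.30% in control ventricles. The share of ITGAV was 56.7% in DMVD valves and 69.5% in control valves, and that of ITGA5 was 24.6% in DMVD valves and 18.7% in control valves. In DMVD ventricles ITGA5 was the largest of the 7, with 54.6%, against 38.7% in control ventricles, where ITGAV had 51.6%. Outside the set ITGA7, at 54.5 FPKM, stood above ITGAV, at 43.0 FPKM, in control ventricles. The 3 collagen receptors together held 4.55% in DMVD valves and 6.92% in control valves, and 4.08% in DMVD ventricles and 6.76% in control ventricles. These shares describe the group values and carry no error. ITGB1 was listed at 0.858 times the sum of the 7 alpha chains of the set in DMVD valves and 0.890 times in control valves. In the ventricle it was listed at 1.21 times this sum in DMVD and 0.945 times in control samples. All 17 measured alpha chains summed to 211 FPKM in DMVD valves and 175 FPKM in control valves. They summed to 153 FPKM in DMVD ventricles and 155 FPKM in control ventricles. Each of these sums is above the ITGB1 value of its group.

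**Figure D4:**
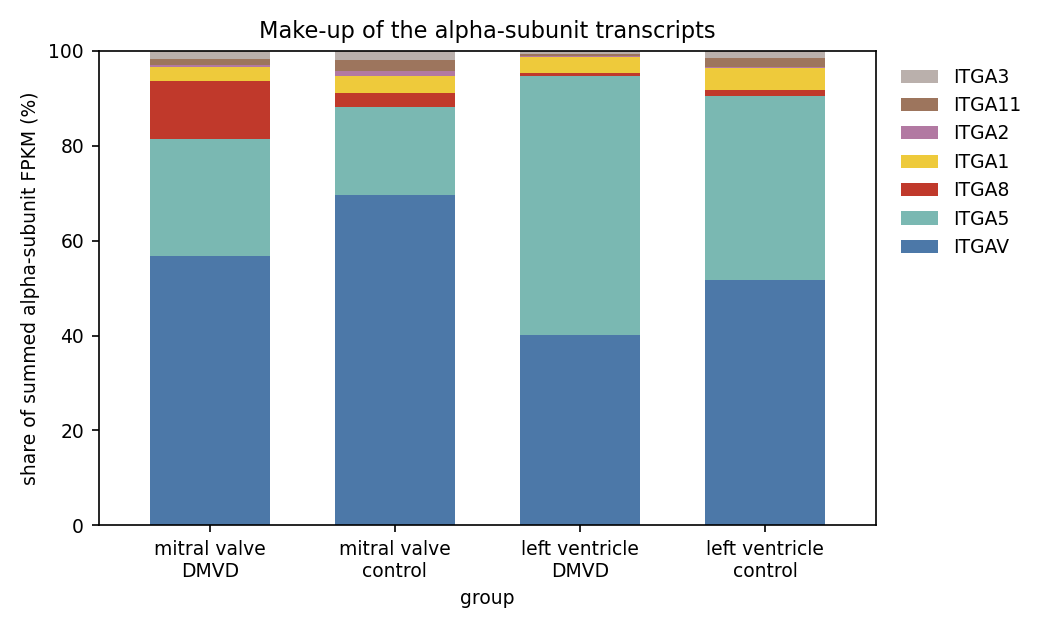
Share of each alpha subunit in the summed FPKM of the 7 alpha chains of the set, in percent, for DMVD and control mitral valves and DMVD and control left ventricles. ITGA8 (red) takes 12.3% in DMVD valves and 2.85% in control valves, and the collagen and laminin receptors are thin bands at the top of every bar.

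The integrin subunits outside the set include those of leukocytes, platelets, epithelia and muscle, and also other matrix-binding chains such as ITGA10. Of 16 listed, 13 had a row, 12 were tested in the valve and 5 in the ventricle, and none passed the adjusted p of 0.05 in either tissue. Over all tested genes 0.419% passed in the valve and 3.08% in the ventricle. A higher value in DMVD was listed for 7 of 12 in the valve, against 54.9% of all tested genes. In the ventricle it was listed for 1 of 5, against 46.8%. At an unadjusted p under 0.05 there were 3 of 12 in the valve, against 4.2% of all tested genes, and none of 5 in the ventricle, against 11.3%. In the valve the 3 were the cartilage-type collagen receptor ITGA10, listed at 2.05 FPKM in DMVD and 0.482 FPKM in control samples (2.09 ± 0.77), the dendritic cell and macrophage chain ITGAX (1.57 ± 0.63), and the epithelial TGF-beta activator ITGB6 (-1.24 ± 0.50). They are named after their values were seen, as the named-gene rule covers called genes alone, and their Benjamini-Hochberg adjusted p were 0.443, 0.628 and 0.658. ITGB6, known from epithelia, was listed at 7.80 FPKM in DMVD valves and 18.4 FPKM in control valves. In the ventricle it was listed at 21.0 FPKM in DMVD and 32.5 FPKM in control samples. The part of heart muscle RNA in its valve values was not tested. ITGA10, the fourth collagen-binding alpha chain, was untested in the ventricle, at 0.143 FPKM in DMVD and 0.113 FPKM in control samples. ITGA7, the laminin receptor of striated muscle and also chosen after its values were seen, had -0.77 ± 0.59 in the valve and -0.90 ± 0.53 in the ventricle. The median log2 fold change of this list was 0.25 over the 12 tested in the valve but -0.082 over the 8 whose mean reached 1 FPKM, and -0.90 in the ventricle.

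Ligands of these receptors passed in the ventricle, where 6 rose, and none passed in the valve. Of 39 matrix ligands and partners, 28 had a row. In the valve none of 26 tested passed, against 0.419% of all tested genes, and 1 had an unadjusted p under 0.05, against 4.2%. There 23 of 26 had a higher value in DMVD, against 54.9% of all tested genes. The median log2 fold change was 0.38, against 0.047 over all tested genes. In the ventricle 6 of the 24 tested rose and the other 18 did not pass, against 1.92% of all tested ventricle genes that rose. The list was chosen with earlier results of these data known, so this contrast is no independent test of the ligands. A higher value in DMVD was listed for 14 of 24, against 46.8% of all tested genes. The list's median was 0.25 there. The risen ligands were the matricellular proteins THBS1 (4.15 ± 0.48), CTGF (2.78 ± 0.45), CYR61 (1.67 ± 0.45), POSTN (3.64 ± 0.99), SPP1 (2.33 ± 0.62) and TNC (3.58 ± 1.10), secreted proteins that bind integrins and alter adhesion. Their Benjamini-Hochberg adjusted p ran up to 0.0398, for TNC. The control values of 2 of them were low. TNC was listed at 1.68 FPKM in DMVD and 0.140 FPKM in control ventricles, and POSTN at 5.63 FPKM in DMVD and 0.453 FPKM in control ventricles. With genes under a mean of 1 FPKM left out, TNC among them, 5 ligands passed in place of 6. The difference between the tissues did not pass for any ligand, and the smallest adjusted p was 0.159, for THBS1. In the same ventricle samples all 4 red cell markers with a row, of 6, rose, with a sum of 3604 FPKM in DMVD and 62.6 FPKM in control samples. The 7 endothelial markers summed to 183 FPKM in DMVD and 85.2 FPKM in control ventricles. All 7 had a higher value in DMVD, and 2 of them passed. The 6 leukocyte markers summed to 41.6 FPKM in DMVD and 16.4 FPKM in control ventricles. All 4 that were tested had a higher value in DMVD, and 1 passed. The 8 platelet markers summed to 75.1 FPKM in DMVD and 61.8 FPKM in control ventricles, and 1 of 3 tested rose. Of these sums TUBB1 held 70.8 FPKM in DMVD and 59.2 FPKM in control ventricles. The risen marker, SELP, was listed at 1.48 FPKM in DMVD and 0.173 FPKM in control ventricles. The part of these differences in the ligand values was not tested.

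Of the ITGA8 ligands named above, nephronectin and fibronectin, only nephronectin had a row under its symbol. Other genes of the ligand list may also bind ITGA8 and were not singled out. Nephronectin (NPNT) was listed at 14.3 FPKM in DMVD valves and 9.91 FPKM in control valves, a log2 fold change of 0.53 ± 0.45 that did not pass. In the ventricle it was listed at 5.71 FPKM in DMVD and 2.11 FPKM in control samples, or 1.43 ± 0.47, with a Benjamini-Hochberg adjusted p of 0.0610. NPNT was singled out for the ITGA8 result after values were seen. Fibronectin and vitronectin had no row under their symbols and were not analysed here.

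Focal adhesion proteins, the links between integrin tails and actin, had rows for 40 of 48 listed genes. In the valve none of 38 tested passed, against 0.419% of all tested genes, and 2 had an unadjusted p under 0.05, against 4.2%. A higher value in DMVD was listed for 33 of 38, against 54.9% of all tested genes. The list's median there was 0.38, against 0.047 over all tested genes. In the ventricle 22 of 39 tested had a higher value in DMVD, against 46.8% of all tested genes. The list's median was 0.16 there, against -0.041 over all tested genes. Of the 39, 2 rose, against 1.92% of all tested genes, and the other 37 did not pass. Among the 2 that rose was the actin cross-linker ACTN1, listed at 13.8 FPKM in DMVD ventricles and 3.72 FPKM in control ventricles (1.89 ± 0.52, Benjamini-Hochberg adjusted p of 0.0122). In the valve ACTN1 was listed at 48.6 FPKM in DMVD and 25.2 FPKM in control samples, or 0.95 ± 0.67, and did not pass.

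**Figure D5:**
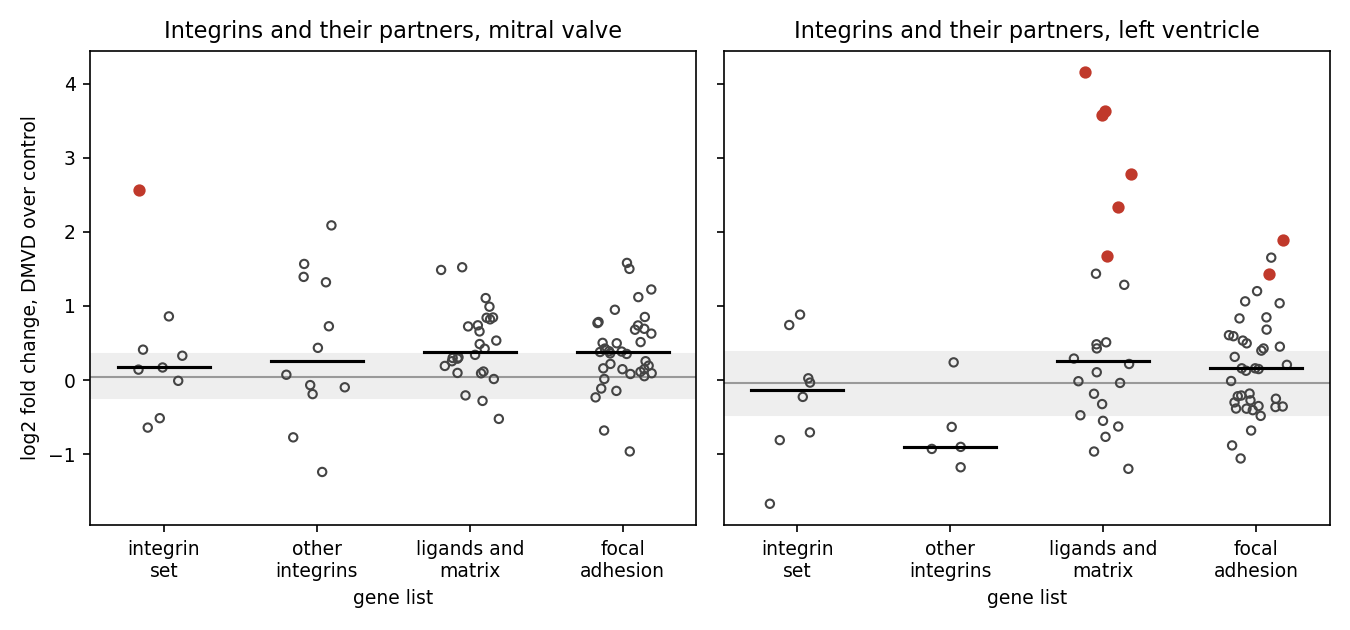
Log2 fold change, DMVD over control, of tested genes of the integrin set, the other integrin subunits, the integrin ligands and matrix partners and the focal adhesion proteins, in the mitral valve (left) and the left ventricle (right). Each point is a gene, filled red past the adjusted p of 0.05, black bars are list medians, and the grey band and line are the interquartile range and median of all tested genes. In the valve ITGA8 is the one filled point, and in the ventricle 6 ligands and 2 focal adhesion genes are filled.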

How the data were processed

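Per the submitters' processing notes, reads were trimmed with cutadapt and aligned with Bowtie and TopHat to CanFam3.1, without versions. The authors deposited 1 table per tissue with an FPKM value per group, a log2 fold change of control over DMVD, a test statistic (a score) and an unadjusted p-value for each gene. The sources used here do not name the program behind the tables; their columns have the layout of Cuffdiff, from which FPKM was read. FPKM totals differ between groups and the tables were normalised separately.

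From the group values, log2 fold changes were computed with DMVD on top. The authors' p matches a two-sided normal p of their statistic to within 2.84e-06, so dividing the fold change (log2) by the statistic gives an SE, the error of the authors' model and not a spread between dogs. P-values were adjusted by Benjamini-Hochberg over all genes marked as tested, at 0.05. The valve minus ventricle difference was tested with the SEs of both tissues added in quadrature, over 13099 genes. Starts were shifted to count from 1: 147 of 168 olfactory receptor genes then have a length divisible by 3. The steps were run on simulated data with noise drawn from the same SEs and planted changes larger than that of any integrin. This checks the calculation alone, not the SEs or the independence of genes and dogs. Alternatives were another adjustment, filters at 1 and 5 FPKM, median subtraction and pseudocounts of 1 and 0.1 FPKM.

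The members and lists were chosen with earlier results of these data known. Named genes were all members, and up to 5 called genes of each other list with the smallest p, or all where 6 or fewer were called; 1 such gene is not reported here. UniProt names were translated by hand where known. The software was Python 3.11.15 with pandas 2.3.3, numpy 2.4.6, matplotlib 3.10.9 and scipy 1.17.1.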

Additional observations from a re-analysis of the deposited data

How the results depend on the processing

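The count of integrins changed in DMVD valves was 1, and 0 with the Benjamini-Yekutieli adjustment, which assumes any dependence between genes. It stayed at 1 under the 3 other settings, and the counts of the ventricle and of the difference between tissues stayed at 0 under all 4. The counts of the other 3 lists were run with the 1 FPKM filter alone and stayed within 1.5 times in both tissues. The count of ligands in the ventricle went from 6 to 5. The median log2 fold change of the other integrin subunits in the valve was 0.25, and -0.082 over the 8 whose mean reached 1 FPKM; the cause was not tested. The marker sums without DES or MYH7 were added after seeing the data. Without DES the ratio of the smooth muscle sums in the valve, DMVD over control, was 2.11 in place of 1.33. Most of the sums without DES was TAGLN. The log2 fold change of ITGA8 in the valve ran from 2.26, with 1 FPKM added, to 2.57. Values without each replicate were not run, since the tables hold group values. No paired analysis was possible because the tables hold 1 value per group and no values per dog. Depth per library is unknown, and the precision is that of the authors' SE.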

Other observations

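Some rows stand far from related genes and were left as listed. COL3A1, a fibrillar collagen, was marked as not tested in the valve at 0.449 FPKM in DMVD and 0.455 FPKM in control samples, whereas COL1A1 was listed at 201 FPKM in DMVD valves and 127 FPKM in control valves. The smooth muscle gene CNN1 was listed at 5.23e-05 FPKM in DMVD valves and 5.47e-05 FPKM in control valves, whereas ACTA2 was listed at 74.8 FPKM in DMVD valves and 31.6 FPKM in control valves. These genes were picked after their values were seen.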
